A study of Camelus dromedarius with 10 samples.

Results

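Histone and DNA modifying enzymes add marks to chromatin or take them off. The genes described here are 55 such enzymes listed by name in 8 role groups: class I histone deacetylases, class II and IV histone deacetylases, sirtuins, lysine acetyltransferases, lysine demethylases, lysine methyltransferases, DNA methyltransferases and arginine methyltransferases. They were chosen by role, with earlier results of these data known. Of the 55 genes, 52 were paired with a gene ID among the 22444 of the count table, 46 by their camel name and 6 by the name of the human ortholog (HDAC8, SIRT6, KAT6A, KDM4A, KDM6B and KMT2A). The acetyltransferases EP300 and CREBBP and the DNA methyltransferase DNMT3B were not paired and are not analysed here. All 52 paired genes passed the filter on low counts.

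The data are read pair counts per gene from ribosome-depleted RNA of the rostral supraoptic nucleus (SON), the hypothalamic nucleus whose magnocellular neurones make the antidiuretic hormone vasopressin. Male dromedary camels of similar age, all with free access to food, were either given water freely (control, n = 5) or deprived of water for 20 days (WD, n = 5). One library was made per camel, from the SON of one side of the brain, and libraries are named here by group and label number (CON2, CON3, CON4, CON5 and CON13, and WD6, WD7, WD8, WD9 and WD15). Punches of tissue hold neurones, glia, vessels and blood together, so fewer cells of a type and less RNA per cell cannot be told apart in any value below.

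Library totals ranged from 1665098 counts (CON13) to 8126641 (WD9), and the 5 dominant gene IDs had a share of 27.7% to 76.1%. Outside these IDs, CON13 held 397495 counts and WD6 held 1106575, against up to 5872137 in WD9, so these 2 libraries are the shallow ones for every gene below. A single read pair was worth 1.20 CPM (read pairs per 1e+06 after TMM normalization) in CON13 and 0.475 CPM in WD6. Markers of magnocellular neurones were present in every library: the summed level of 6 markers was 806 to 1096 CPM in control and 1702 to 2615 CPM in WD libraries, with PDYN and PCSK1 the 2 that passed the test, both higher in WD. CALCR gave a log2 fold change of 0.72 (edgeR, unadjusted p = 0.00313, adjusted p = 0.203), with every WD library above every control library. Estimates were negative for SIM1 (−0.04), ARNT2 (−0.03) and OTP (−0.58, unadjusted p = 0.0255, edgeR). AVP and OXT themselves had no paired ID and were not analysed here.

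In chromatin, lysine acetyltransferases put acetyl groups on histone tails, which is associated with open, transcribed chromatin, and histone deacetylases and the NAD-dependent sirtuins remove them. Lysine and arginine methyltransferases add methyl groups that, depending on the residue, accompany active or silent genes, and lysine demethylases take them off, either with flavin (the KDM1 family) or with iron and 2-oxoglutarate (the Jumonji family). DNA methyltransferases place methyl groups on cytosines, and TET enzymes oxidize them. In rats, DNA methylation at the vasopressin gene has been studied during dehydration. RNA counts do not measure the activity of these enzymes.

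No enzyme gene passed the test for a change with WD. In edgeR's quasi-likelihood test, with p-values adjusted (Benjamini-Hochberg) for the 14432 genes tested, 0 of the 52 genes had an adjusted p of at most 0.05, while 0.499% of all genes (72) were differentially expressed genes (DEGs). DESeq2's Wald test also called 0 of the 52, beside 1.52% of all genes (220). Adjusted p-values of the 52 genes started at 0.368. At an unadjusted p under 0.05 there were 3 of 52 (5.77%), below the 9.31% of all genes that reached it: HDAC11, lower in WD (1 gene, beside 4.41% of all genes lower at that p), and KDM1B and HDAC7, higher in WD (2 genes, beside 4.91%). In no enzyme gene did the 5 WD libraries lie wholly above or wholly below the 5 control libraries, a separation seen in 2.62% of all genes.

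Fold changes of the enzyme genes were small and were measured with some precision. The log2 fold change of WD over control ranged from −0.53 (HDAC11) to 0.61 (HDAC10), with a median of 0.07 beside 0.02 for all genes, and 34 of the 52 were above 0 (65.4%, against 51.9% of all genes). This median was 0.03 without CON13 and 0.01 without both shallow libraries. For 45 of 52 genes (86.5%) the whole 95% interval of the log2 fold change lay between −1 and 1, that is within a doubling or halving, against 66.2% of all genes. Intervals of the other 7 (HDAC10, SIRT4, SIRT6, SIRT7, KDM1B, EZH2 and PRMT6) reached beyond it on 1 side. Intervals within −1 and 1 were not particular to these genes. They were found for 88.6% of the other histone-modifying enzymes tested and 100% of the methylcytosine oxidases and readers described below. The median standard error was 0.20 on the log2 scale for the enzyme genes and 0.26 for all genes, and the median biological coefficient of variation was 0.210 against 0.263.

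**Figure D1:**
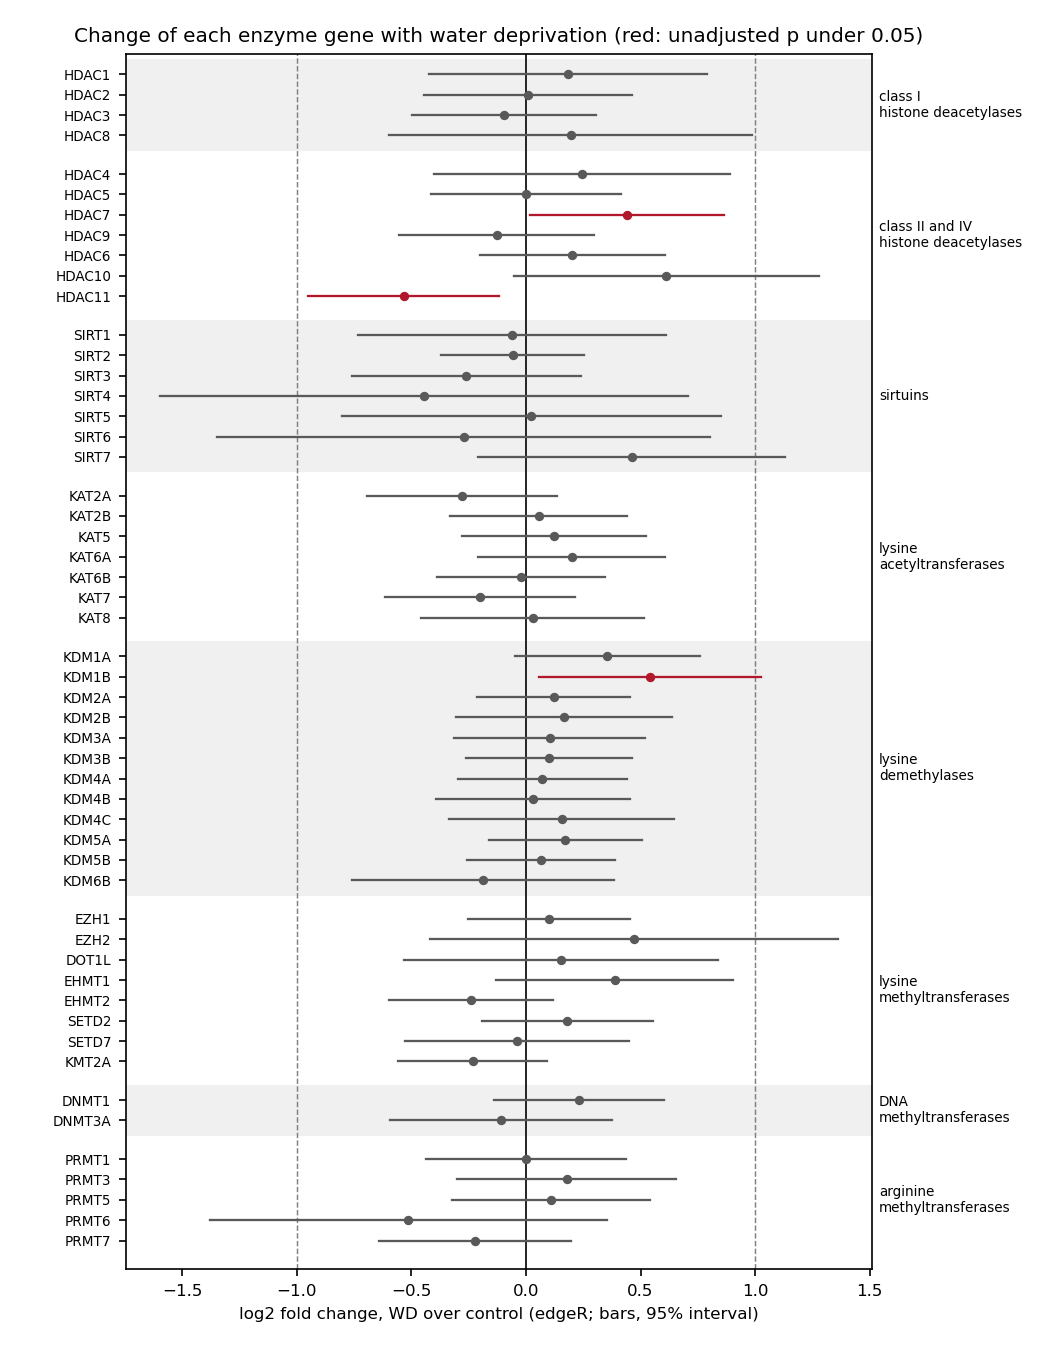
Log2 fold change of WD over control (x axis; point, estimate; bar, 95% interval; edgeR, n = 5 per group) for the 52 enzyme genes, arranged by role on the y axis, with dashed lines at −1 and 1. All estimates lie between −0.53 and 0.61, red marks the 3 genes with an unadjusted p under 0.05, and 45 of the 52 intervals stay between the dashed lines.

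HDAC11, the only class IV histone deacetylase, had the smallest p of the set. Its level was 38.8, 44.9, 40.0, 38.4 and 53.8 CPM in CON2, CON3, CON4, CON5 and CON13. In WD6, WD7, WD8, WD9 and WD15 it was 44.6, 28.7, 24.3, 25.8 and 25.8 CPM. Thus 4 of the 5 WD libraries lay below every control library, and WD6 alone overlapped them. Means were 43.2 ± 6.48 CPM in control and 29.8 ± 8.41 CPM in WD (SD, n = 5 each), a log2 fold change of −0.53 (SE 0.197, unadjusted p = 0.0146, adjusted p = 0.368, edgeR). Its unadjusted p stayed under 0.05 when any of the 10 libraries was left out, as it did in 3.87% of all genes and in no other enzyme gene. Without WD6 its log2 fold change was −0.70 with an adjusted p of 0.0592 (edgeR), still short of the threshold. Since WD6 alone overlapped the control libraries, the groups then had to separate, and this omission was picked out after the values were seen. Without WD6, 3.03% of all genes separated in the same direction. With both shallow libraries left out, the log2 fold change was −0.65 and the adjusted p was 0.0728. Expression of HDAC11 is known from neurones and oligodendrocytes, and levels of those cells' markers are given here beside it. The 5 neurone markers summed to 506 to 831 CPM in control and 407 to 723 CPM in WD, with all 5 estimates below 0. CAMK2A (log2 fold change −0.87) and MYT1L (−0.73) were at an unadjusted p under 0.05 (edgeR), while UCHL1 (−0.01), GAD2 (−0.04) and GAD1 (−0.18) were not. UCHL1 made up most of the sum, with means of 477 CPM in control and 473 CPM in WD. The 8 oligodendrocyte markers summed to 133 to 366 CPM in control and 131 to 273 CPM in WD, with 7 estimates below 0 and none at that p. Their part in the HDAC11 difference was not tested.

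KDM1B (LSD2), a flavin-dependent demethylase of histone H3, was the demethylase with the largest estimate. It stood at 13.4, 8.04, 17.2, 15.8 and 9.57 CPM in CON2, CON3, CON4, CON5 and CON13 and at 19.0, 15.9, 19.7, 18.8 and 23.5 CPM in WD6, WD7, WD8, WD9 and WD15. The groups overlapped only through CON4 and WD7, the highest control and the lowest WD library. The log2 fold change was 0.54 (SE 0.230, unadjusted p = 0.0310, adjusted p = 0.474, edgeR), from 12.8 ± 3.94 CPM to 19.4 ± 2.73 CPM (SD, n = 5 each). At this level CON13 holds few reads of the gene, and its unadjusted p stayed under 0.05 in 5 of the 10 fits that left out a library. It did not with the RNA integrity number as a covariate (log2 fold change 0.48, unadjusted p = 0.0608, edgeR) or without both shallow libraries (0.47, unadjusted p = 0.0583).

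HDAC7 is a class IIa deacetylase, a class that shuttles between cytoplasm and nucleus, and is best known from endothelium and lymphocytes. Control levels were 40.6, 35.0, 23.6, 36.7 and 29.9 CPM in CON2, CON3, CON4, CON5 and CON13. WD levels were 57.9, 36.7, 41.0, 37.1 and 55.0 CPM in WD6, WD7, WD8, WD9 and WD15. WD6 and WD15 stood above all other libraries, and the remaining 3 WD libraries lay at the upper end of the control range or just above it. The log2 fold change was 0.44 (SE 0.201, unadjusted p = 0.0431, adjusted p = 0.521, edgeR), from 33.2 ± 6.56 to 45.5 ± 10.1 CPM (SD, n = 5 each), and 4 of the 10 fits without a library kept the unadjusted p under 0.05. The log2 fold change was 0.34 without WD6, 0.36 without WD15 and 0.31 without CON4, the lowest control library (unadjusted p = 0.146, edgeR). It was 0.31 with the RNA integrity number as a covariate (unadjusted p = 0.105, edgeR) and 0.30 without both shallow libraries (unadjusted p = 0.146, edgeR). The 8 endothelial markers summed to 135 to 204 CPM in control and 164 to 283 CPM in WD, with 5 of 8 higher, FLT1 and KDR at an unadjusted p under 0.05 and none past the threshold. What share endothelial RNA had in the HDAC7 values was not tested.

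**Figure D2:**
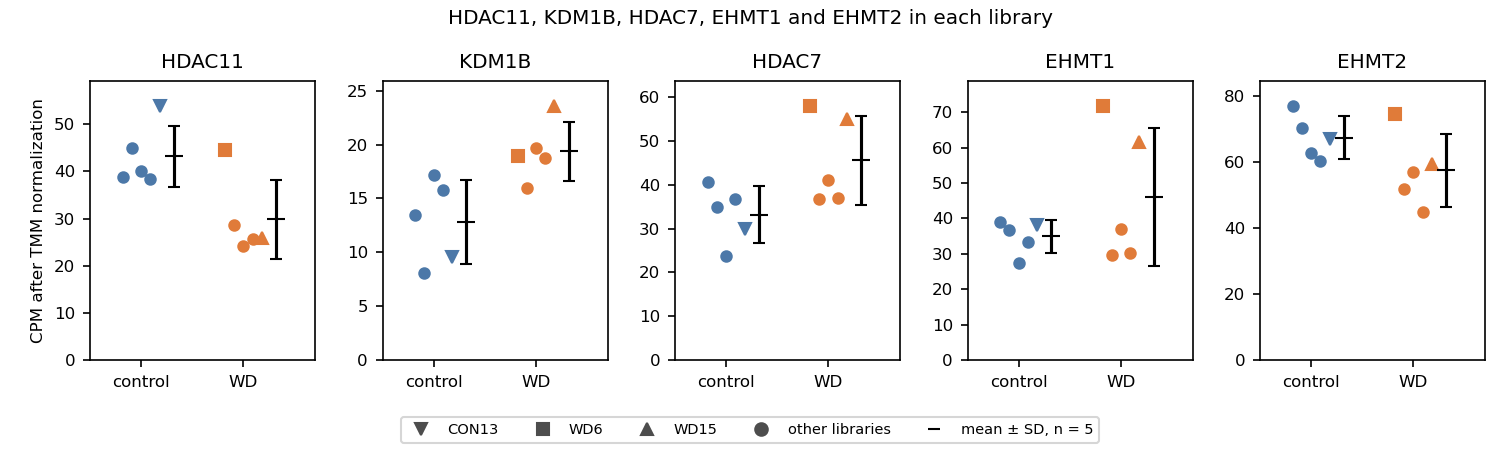
Level (y axis, CPM after TMM normalization, from 0) of HDAC11, KDM1B, HDAC7, EHMT1 and EHMT2 in each control (blue) and WD (orange) library, with the mean ± SD of each group (n = 5) in black and the libraries CON13, WD6 and WD15 marked by shape. For HDAC11, WD6 at 44.6 CPM is the only WD library within the control range, and for EHMT1, WD6 and WD15 at 71.7 and 61.7 CPM stand apart from the other 8.

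Among class I deacetylases, the nuclear enzymes of the large co-repressor complexes, HDAC1 was at 18.4 ± 3.64 CPM in control and 20.0 ± 8.42 in WD, HDAC2 at 21.8 ± 7.04 and 22.8 ± 3.04, HDAC3 at 18.9 ± 3.31 and 17.3 ± 1.38, and HDAC8 at 3.87 ± 1.63 and 4.93 ± 1.60 (SD, n = 5 each). Their log2 fold changes lay between −0.09 (HDAC3) and 0.20 (HDAC8), and the 4 intervals all stayed within −1 and 1. HDAC8, with 1 read pair in CON13, is the least certain of the 4.

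In the class IIa group, HDAC5 was at 118 ± 20.6 CPM in control and 119 ± 29.7 CPM in WD (SD, n = 5 each), a log2 fold change of 0.00 with a 95% interval from −0.41 to 0.41. HDAC4 and HDAC9 gave log2 fold changes of 0.24 and −0.13. HDAC4 was at 38.9 CPM in WD6 and at 12.9 to 25.2 CPM in the other WD libraries. Without both shallow libraries its log2 fold change was −0.0041, so its direction is not settled. HDAC6, the cytoplasmic tubulin deacetylase, gave 0.20, and HDAC10, which deacetylates polyamines, gave 0.61 (95% interval −0.05 to 1.28, unadjusted p = 0.0691, edgeR), the largest positive estimate of all 52 in this fit. With the RNA integrity number as a covariate it was 0.35, below KDM1B (0.48) and KDM1A (0.40). HDAC10 was at 4.47 to 10.6 CPM in control and at 7.40 to 18.0 CPM in WD, and its highest values were again in WD6 (18.0) and WD15 (16.5).

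The sirtuins were the group with the most estimates below 0, 5 of 7, and a median log2 fold change of −0.06, with 0 at an unadjusted p under 0.05. In the other fits that held all 7 genes, 4 to 6 were below 0, and the median lay between −0.10 and −0.16 when CON2, CON13, WD7, WD8, WD9 or WD15 was left out. The exception was scaling by library totals without TMM factors, which put 4 of 7 sirtuins and 68.5% of all genes above 0. SIRT2, a cytoplasmic sirtuin abundant in myelinating cells, had the narrowest interval of the 52 genes: 72.3 ± 7.13 CPM in control and 70.0 ± 3.73 CPM in WD (SD, n = 5 each), with a log2 fold change of −0.06 and an interval from −0.37 to 0.26. SIRT1, the nuclear sirtuin studied in hypothalamic energy balance, gave −0.06 (interval −0.73 to 0.61), and 0.07 without both shallow libraries. Of the mitochondrial sirtuins, SIRT3 gave −0.26 and SIRT5 gave 0.02. SIRT5 had 1 read pair in WD6, and its log2 fold change was −0.15 with the counts outside the dominant IDs as a covariate. SIRT4 gave −0.45 with the widest interval of the set (−1.60 to 0.71), with 161 counts over all libraries, and it was the 1 gene with a count of 0 in a library (WD6, where a count of 0 allows up to 1.42 CPM). SIRT6 (−0.27), which had the fewest counts of the set (158), and SIRT7 (0.46) act in the nucleus and nucleolus and also had intervals that reached beyond −1 or 1.

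Lysine acetyltransferases gave 4 estimates above and 3 below 0, a median of 0.03, and intervals that all stayed within −1 and 1. The split turned to 3 above and 4 below 0 in 6 of the other fits, with a median down to −0.07 (without WD8), so this direction is not settled. KAT2B (PCAF) was at 87.4 ± 13.8 CPM in control and 91.3 ± 20.4 CPM in WD, and its paralogue KAT2A (GCN5) at 32.8 ± 7.01 and 26.6 ± 4.61 CPM (SD, n = 5 each). KAT7, the HBO1 enzyme, gave −0.20 and KAT6A gave 0.20. KAT5 (TIP60), KAT6B and KAT8 (MOF) lay between −0.02 and 0.12.

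Of the 12 lysine demethylases, 11 had estimates above 0, with a median log2 fold change of 0.11, although 1 (KDM1B) reached an unadjusted p under 0.05 and 0 passed the threshold. The exception was KDM6B (JMJD3), a demethylase of the Polycomb mark on histone H3, at −0.19. With both shallow libraries left out, 7 of 12 remained above 0 and the median was 0.03. KDM1A (LSD1), the paralogue of KDM1B, was at 46.3, 40.7, 42.2, 48.5 and 21.5 CPM in CON2, CON3, CON4, CON5 and CON13, and at 45.4 to 59.7 CPM in WD. Its log2 fold change was 0.35 (SE 0.192, unadjusted p = 0.0811, edgeR), and CON13 lay far below the other control libraries; without CON13 the log2 fold change was 0.23. The Jumonji enzymes KDM2A, KDM2B, KDM3A, KDM3B, KDM4A, KDM4B, KDM4C, KDM5A and KDM5B lay between 0.03 (KDM4B) and 0.17 (KDM5A), each with an interval that held 0. KDM4C, which removes methyl groups of the heterochromatin mark on histone H3, was at 37.4 to 41.5 CPM in 4 WD libraries, above all 5 control libraries (25.1 to 35.9 CPM), and at 14.2 CPM in WD6. This pattern was picked out after its values were seen. Without WD6 its log2 fold change was 0.33 in place of 0.16 (adjusted p = 0.381, edgeR), against 0.07 without CON3, 0.08 without WD8 and 0.09 without WD15, and its groups did not overlap, as in 2.92% of all genes in that direction.

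Lysine methyltransferases gave 5 estimates above and 3 below 0. KMT2A (MLL1), which methylates histone H3 at active promoters, held the most counts of the 52 genes (12128 over all libraries). It was at 191 to 269 CPM in control and 179 to 210 CPM in WD, with a log2 fold change of −0.23 (95% interval −0.56 to 0.09). EZH1 and EZH2 are the alternative catalytic subunits of Polycomb repressive complex 2. EZH1 was at 47.9 ± 7.61 CPM in control and 51.9 ± 6.11 CPM in WD, and EZH2, best known from dividing cells, at 3.58 ± 2.52 and 5.19 ± 1.25 CPM (SD, n = 5 each). EZH2 had the largest relative spread in control, with a coefficient of variation of 70.2% and values of 5.34, 7.10, 1.95, 2.34 and 1.20 CPM in CON2, CON3, CON4, CON5 and CON13. SETD2, which trimethylates histone H3 along transcribed genes, gave 0.18, SETD7 gave −0.04, and DOT1L, the methyltransferase of the histone H3 core, gave 0.15. DOT1L varied widely in both groups, from 20.7 to 53.8 CPM in control and from 18.5 to 66.4 CPM in WD. With the RNA integrity number as a covariate its log2 fold change was −0.19.

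EHMT1 (GLP) and EHMT2 (G9a) form a heterodimer that mono- and dimethylates histone H3 in euchromatin. EHMT1 was at 38.8, 36.7, 27.5, 33.4 and 38.3 CPM in CON2, CON3, CON4, CON5 and CON13 and at 71.7, 29.6, 37.0, 30.3 and 61.7 CPM in WD6, WD7, WD8, WD9 and WD15. EHMT2 was at 76.8, 70.3, 62.6, 60.3 and 67.0 CPM in the same control libraries and at 74.5, 51.9, 56.8, 44.8 and 59.4 CPM in the WD libraries. EHMT1 was thus high in WD6 and WD15 and within the control range in the other 3, while EHMT2 was below every control library in all WD libraries but WD6. With WD6 set aside, 3.03% of all genes separated in that direction. Neither gene was called (log2 fold change 0.39, adjusted p = 0.683, and −0.24, adjusted p = 0.724, edgeR). The log2 fold changes of EHMT1 and EHMT2 were 0.19 and −0.34 without WD6, and 0.16 and −0.32 with the RNA integrity number as a covariate.

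Ratios of read pairs between 2 paralogues within a library do not depend on how libraries are scaled, and 6 such ratios were compared by a two-sided exact permutation test, with p-values adjusted over the 6. The log2 ratio EHMT1:EHMT2 was −0.98, −0.94, −1.18, −0.85 and −0.80 in CON2, CON3, CON4, CON5 and CON13. It was −0.06, −0.81, −0.62, −0.56 and 0.05 in WD6, WD7, WD8, WD9 and WD15. All WD libraries but WD7 lay above every control library, and WD7 lay just under CON13. The mean ratio was −0.95 ± 0.149 in control and −0.40 ± 0.376 in WD (SD, n = 5 each), a difference of 0.55, or 0.517 read pairs of EHMT1 for each of EHMT2 in control against 0.759 in WD. The exact permutation p was 0.0159 and 0.0952 after adjustment, which does not pass 0.05. The smallest p that 5 against 5 allows is 0.00794. The difference ran from 0.44 to 0.65 over the 10 omissions of a single library and was 0.50 without both shallow libraries. The adjusted exact permutation p passed the threshold only without WD7 (0.0476). WD7 is the only WD library that overlapped the control libraries, so leaving it out forces the groups apart. Within a ratio, unequal change is measured, not which of the 2 genes moved.

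None of the other 5 ratios reached an unadjusted p under 0.05. EZH1:EZH2 was higher by read pairs in control (log2 ratio 3.89 ± 0.901) than in WD (3.31 ± 0.174, SD, n = 5 each), with an exact permutation p of 0.183. Its control values ran from 2.84 to 4.86 and its WD values only from 3.05 to 3.47. Exact permutation p-values were 0.206 for DNMT3A:DNMT1 (difference −0.34), 0.333 for KAT2A:KAT2B (−0.35), 0.460 for HDAC4:HDAC5 (0.23) and 0.778 for HDAC1:HDAC2 (−0.14). With a single library left out, the difference shrank to −0.33 for EZH1:EZH2 and 0.03 for HDAC4:HDAC5 (both without CON4), to −0.18 for DNMT3A:DNMT1 (without CON3) and to −0.14 for KAT2A:KAT2B (without CON13). The HDAC1:HDAC2 difference turned to 0.44 without the shallow libraries, in which HDAC1 or HDAC2 was low.

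**Figure D3:**
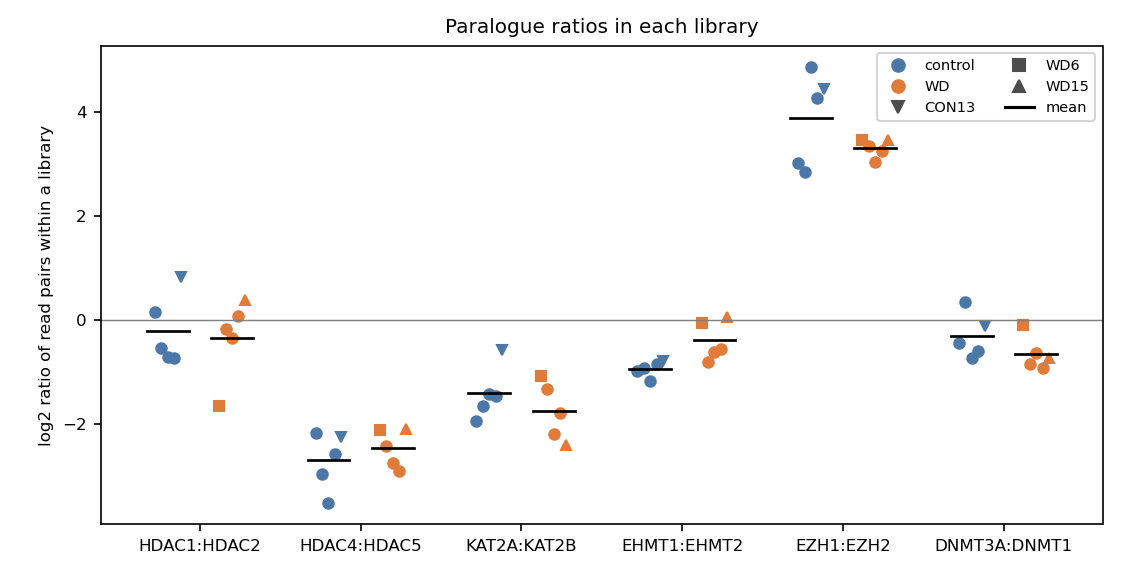
Log2 ratio of read pairs of 2 paralogues within a library (y axis) for 6 pairs (x axis), with control libraries in blue, WD libraries in orange, black bars at group means and shapes for CON13, WD6 and WD15. For EHMT1:EHMT2, 4 of 5 WD libraries (−0.62 to 0.05) lie above the highest control library (−0.80), and for EZH1:EZH2 the control libraries spread from 2.84 to 4.86.

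DNMT1, the maintenance DNA methyltransferase, was at 39.7 ± 4.12 CPM in control and 46.6 ± 9.39 CPM in WD, and DNMT3A, the de novo enzyme of mature neurones, at 32.6 ± 8.03 and 30.2 ± 8.86 CPM (SD, n = 5 each). Their log2 fold changes were 0.23 (95% interval −0.14 to 0.60) and −0.11 (−0.59 to 0.37). The WD mean of DNMT1 rests on WD15 (63.1 CPM), since the other 4 WD libraries lay at 40.7 to 44.6 CPM, beside 33.6 to 44.4 CPM in control, and the log2 fold change was 0.10 without WD15 and 0.15 with the RNA integrity number as a covariate. WD15 was also the library with the highest summed level of 9 microglial markers, 803 CPM against 272 to 424 CPM in the other WD libraries and 221 to 355 CPM in control. Of these markers, 8 of 9 had estimates above 0 and 5 of the 8 an unadjusted p under 0.05, while CSF3R was lower at that p and none passed the threshold. Whether microglial RNA has a part in the DNMT1 value of WD15 was not tested.

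Arginine methyltransferases gave 3 estimates above and 2 below 0, with a median of 0.00. PRMT1, which makes most of the asymmetric dimethylarginine in cells, was at 41.2 ± 7.40 CPM in control and 41.4 ± 9.08 CPM in WD (SD, n = 5 each), with a log2 fold change of 0.00 and an interval from −0.43 to 0.43. PRMT5, the main symmetric enzyme, gave 0.11, PRMT3 gave 0.18 and PRMT7 gave −0.22. PRMT6 gave −0.51, but its interval ran from −1.38 to 0.35 and its 2 farthest values were in the shallow libraries, 14.3 CPM in CON13 and 1.42 CPM in WD6.

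**Figure D4:**
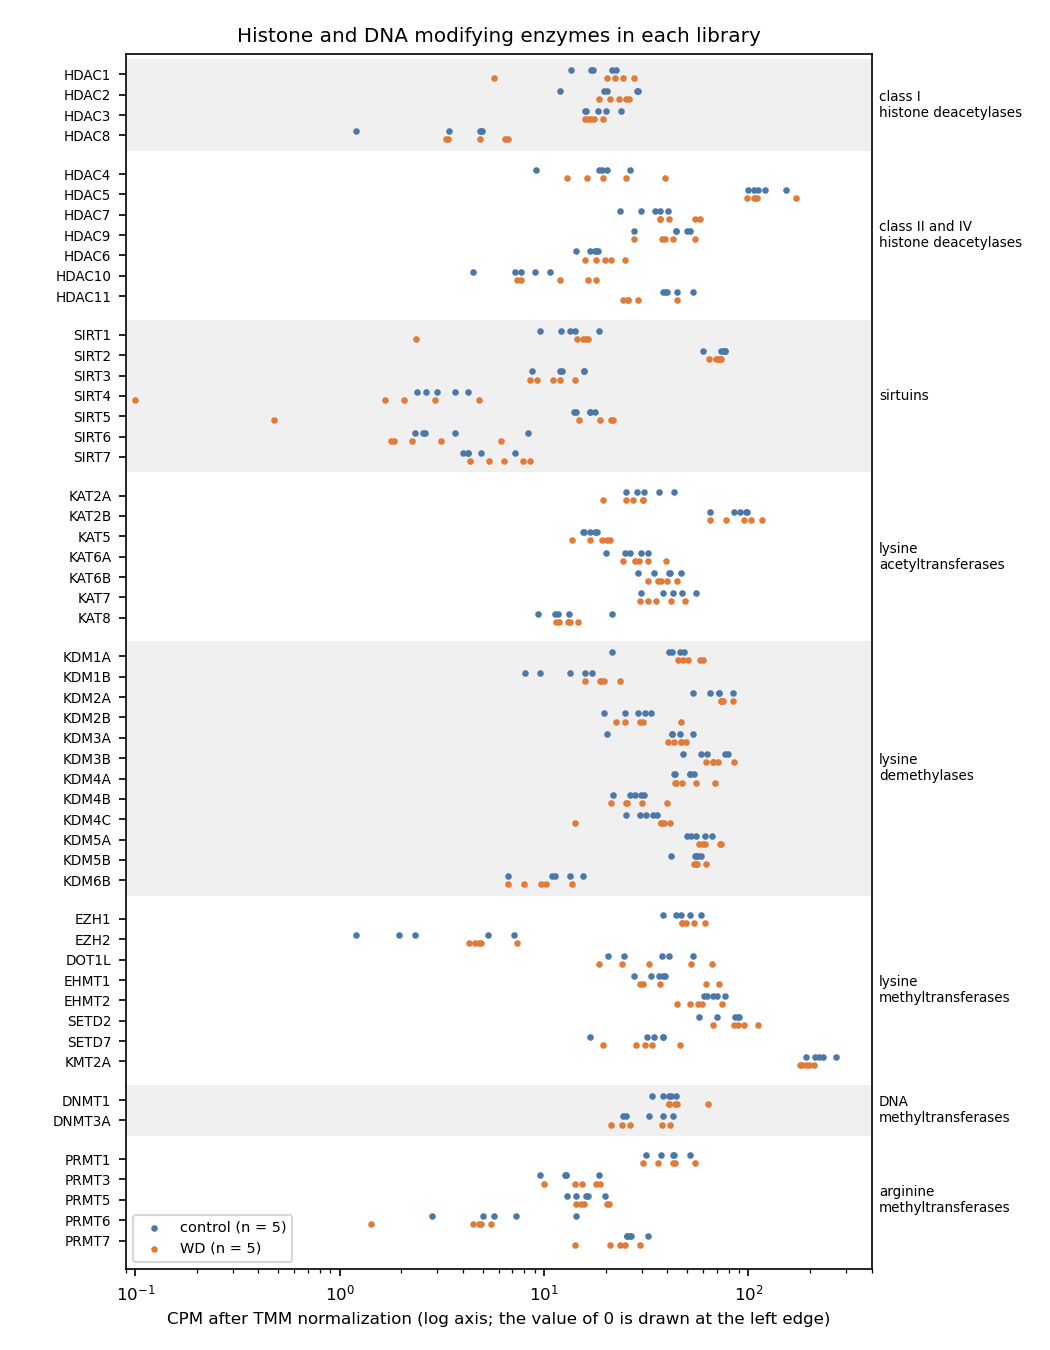
Level of each of the 52 enzyme genes (y axis, arranged by role) in each of the 10 libraries (x axis, CPM after TMM normalization, log axis), with control libraries in blue and WD libraries in orange. The groups overlap in every gene; a value of 0 (SIRT4 in WD6) is drawn at the left edge.

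Control levels ran from 3.19 CPM (SIRT4) to 225 CPM (KMT2A), with a median of 31.5 CPM. CPM counts read pairs per gene and not transcripts per length, and no transcript lengths were used here, so these values do not order the genes by transcript number. The median coefficient of variation within a group was 19.7% in control and 22.1% in WD, and 29 of the 52 genes varied more in WD. At least 10 read pairs in every library were counted for 41 of the genes. Of the highest and lowest values of the 52 genes, 104 in all, 47 were in CON13 or WD6, and 42 genes had their highest or their lowest value in 1 of these 2 libraries. CON13 held the lowest value of 18 genes, WD6 of 10, and WD15 the highest of 13.

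**Figure D5:**
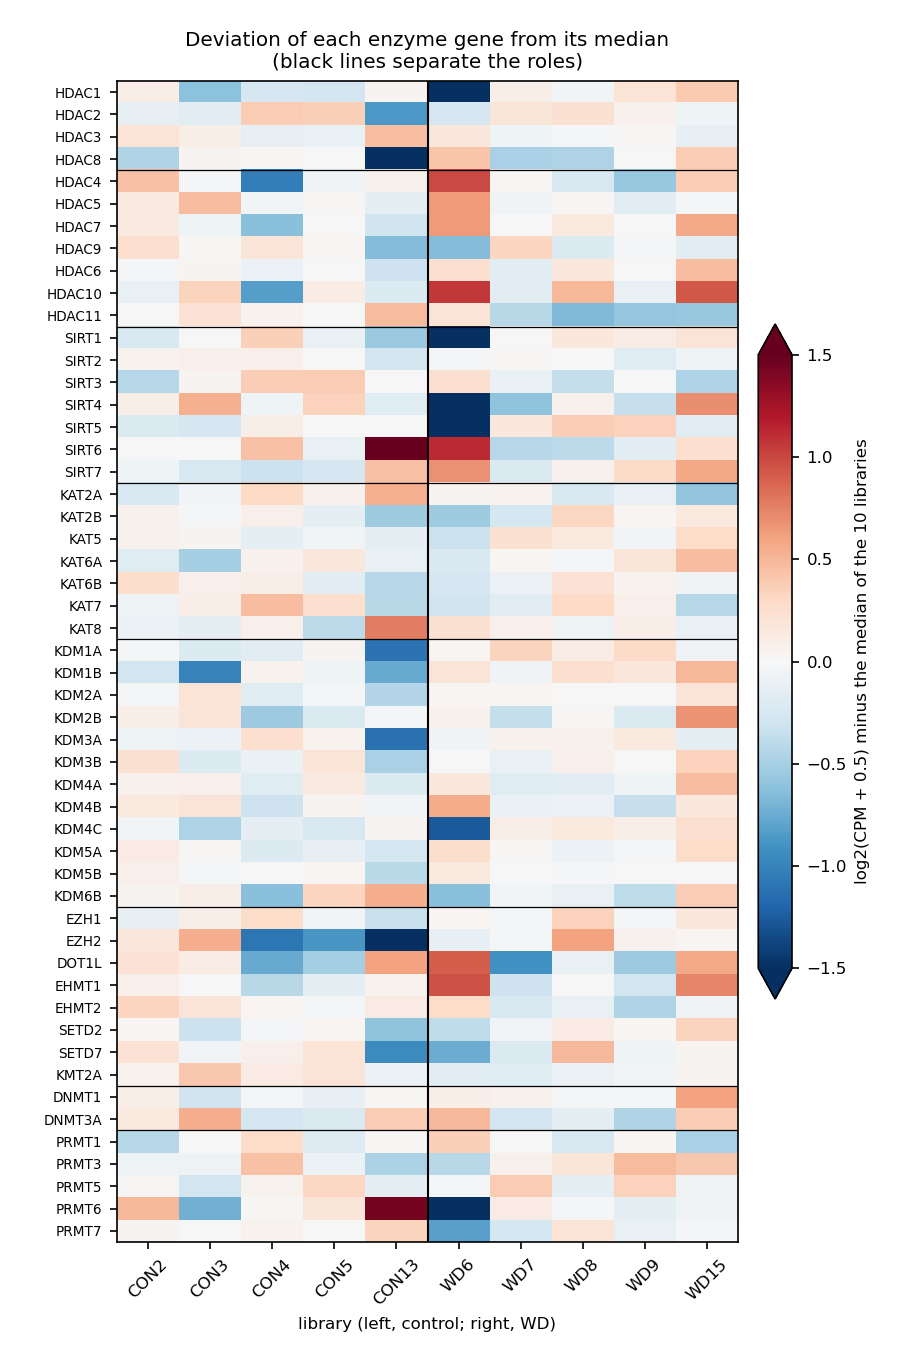
Log2(CPM + 0.5) of each enzyme gene (rows, with black lines between roles) in each library (columns; control left of the vertical line, WD right of it) minus the gene's median over the 10 libraries, in colour from −1.5 (blue) to 1.5 (red). Many of the strongest colours stand in CON13 and WD6, which hold 47 of the 104 highest and lowest values.

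No related chromatin gene passed the threshold. Of 37 other histone-modifying enzymes paired with an ID, 35 were tested (KDM4D and PRMT8 had too few counts), 18 were above and 17 below 0, 0 passed the threshold and the median log2 fold change was 0.00. SUV39H2, a methyltransferase of the heterochromatin mark with 152 counts in all, was the 1 of 35 at an unadjusted p under 0.05 (9.31% of all genes), with a log2 fold change of 0.94 and an adjusted p of 0.536 (edgeR). Of 12 methylcytosine oxidases and readers (the TET enzymes and the MBD and ZBTB proteins), 7 were above and 5 below 0, and 0 reached an unadjusted p under 0.05.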

How the data were processed

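Raw counts per gene, deposited by the authors, were the input. Per the paper's methods, the authors depleted ribosomal RNA, made stranded libraries, merged and trimmed reads, aligned them to the Camdro2 assembly with STAR and counted read pairs with featureCounts. Replicates were not pooled. The annotation release and the strand setting are not given in the sources used here, so genes that overlap are uncertain. No enzyme ID had counts within 1% of another ID in every library. A deposited table of normalized values was not used. Symbols came from the study's supplementary tables as available here, in which 4316 IDs were paired with a name. The paper describes a full supplementary table of 22444 genes, so a gene left unpaired here may be named there. No coordinates or transcript lengths were used.

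WD and control libraries (n = 5 each, taken as separate camels per the labels) were compared with edgeR 4.0.16 in R 4.3.3 (TMM, filterByExpr, robust quasi-likelihood F test), with p-values adjusted by Benjamini-Hochberg over 14432 tested genes, at a threshold of 0.05. Intervals are the log2 fold change ± t times its SE. Paralogue ratios used counts plus 0.5. Counts of 0 allow up to 3 counts, and floors and counting intervals cover counting error only. The tests were checked on simulated counts. Alternatives were DESeq2 1.42.0, DESeq2's size factors, library totals, no count filter, a minimum of 10 counts per library, a non-robust fit, covariates for RNA integrity number and depth, and fits without libraries.

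All enzyme genes were named by role, and values in every library were given for genes with an unadjusted p under 0.05 and for both genes of a ratio with an exact p under 0.05. KDM1A, KDM4C and EZH2 values were added after they were seen. The genes, lists and tests were chosen with earlier results of these data known. Differential expression was compared between groups only, and the range of depths is given with the results.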

Additional observations from a re-analysis of the deposited data

Results flagged for a closer look

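A library was singled out where its gap to the nearest other library of its group exceeded Dixon's 95% limit for 5 samples. Of 116 groups checked (the 52 genes and 6 ratios in control and WD), 19 were singled out, where chance gives about 1 in 20, or 5.8. Of the 19, 8 were in CON13, 8 in WD6, 2 in WD15 and 1 in WD8. In 14 of the 19 the exact 95% Poisson interval of the count lay outside the range of the other 4 libraries of the group.

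In WD6, several genes were far below the other WD libraries. SIRT5 had 1 read pair there, or 0.475 CPM (Poisson interval 0.0120 to 2.64), against 14.8 to 21.7 CPM. SIRT1 was at 2.37 CPM (interval 0.770 to 5.54) against 14.4 to 16.5, HDAC1 at 5.69 (2.94 to 9.95) against 20.3 to 27.5, and KDM4C at 14.2 (9.61 to 20.3) against 37.4 to 41.5 CPM. PRMT6 was at 1.42 CPM, with 3 read pairs. In the same library HDAC5 (171 CPM against 97.8 to 111), HDAC11 (44.6 against 24.3 to 28.7) and KDM5B (61.7 against 54.4 to 56.0) were above the other WD libraries, with a Poisson interval of KDM5B (51.5 to 73.3) that overlapped them.

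In CON13, the library with the fewest counts, HDAC8 (1.20 CPM, 1 read pair), HDAC9 (27.5), SIRT2 (59.8), KDM1A (21.5), KDM3A (20.3), KDM5B (41.8) and SETD7 (16.7) were below the other control libraries, and PRMT7 (32.3) was above them. The Poisson intervals of HDAC8, SIRT2, KDM5B and PRMT7 overlapped the range of the other 4.

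In WD15, KDM2A (84.0 CPM against 73.1 to 75.0) and DNMT1 (63.1 against 40.7 to 44.6) were above the other WD libraries. In WD8, EZH2 was at 7.37 CPM against 4.27 to 4.93.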

How the results depend on the processing

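No enzyme gene passed the adjusted threshold in any of 19 other fits, where the lowest adjusted p was 0.0592. The number of DEGs among all genes was 220 with DESeq2, 10 with library totals, 155 with depth (counts outside the dominant IDs) as a covariate, and 40 (without CON3) to 102 (without WD6) when a library was left out. Enzyme genes at an unadjusted p under 0.05 numbered 0 with library totals (3.04% of all genes), 5 with the depth covariate (HDAC7, HDAC10, HDAC11, KDM1B and EHMT1; 12.4% of all genes), 2 with the RNA integrity covariate (HDAC11 and KDM1A; 9.57%), 4 with DESeq2 (adding KMT2A; 10.7%), 3 without both shallow libraries (HDAC11, KDM4C and EHMT2; 12.1%) and 1 to 4 with a library left out (6.39% to 13.4% of all genes); without CON13, WD8 or WD15 only 1 was left. With library totals the median log2 fold change of all genes shifted to 0.16 and 40 of the 52 enzyme genes were above 0 (68.5% of all genes), and without both shallow libraries 26 were (48.9% of all genes). Genes whose groups did not overlap numbered 0 to 3 with a library left out and 4 without both shallow libraries (HDAC11, EHMT2 and KMT2A lower, KDM4C higher, beside 3.97% of all genes lower and 3.68% higher), and single omissions gave 1.52% to 3.03% of all genes lower and 1.65% to 2.92% higher, an alternative chosen after seeing the data. The EHMT1:EHMT2 difference ran from 0.44 to 0.65. The HDAC1:HDAC2 difference was 0.44 without both shallow libraries and ran from −0.32 to 0.19 with a library left out.

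Of the 52 genes, 31 kept 1 direction in every fit (20 higher, 11 lower) and 21 turned in at least 1, all with a main log2 fold change of at most 0.24 in size. Outside the fit on library totals, which moved most genes up, 34 kept 1 direction (20 higher, 14 lower) and 18 turned, so HDAC3, HDAC9 and SIRT2 turned only with library totals. Turned values were, with DESeq2, HDAC2 −0.0064, HDAC5 −0.012, SIRT5 −0.031 and PRMT1 −0.011, and with DESeq2's size factors, HDAC5 −0.0092 and PRMT1 −0.0099. With library totals they were HDAC3 0.052, HDAC9 0.047, SIRT1 0.16, SIRT2 0.070, KAT6B 0.13 and SETD7 0.14. With RNA integrity as a covariate they were HDAC5 −0.037, KAT2B −0.0031, KDM2B −0.025, KDM4A −0.013, KDM4B −0.059 and DOT1L −0.19, and with the depth covariate HDAC2 −0.079, SIRT5 −0.15 and KAT2B −0.019. Without both shallow libraries they were HDAC2 −0.057, HDAC8 −0.050, HDAC4 −0.0041, HDAC5 −0.23, SIRT1 0.069, KDM3A −0.026, KDM4A −0.0055, KDM4B −0.13, KDM5B −0.043 and PRMT1 −0.11. With a library left out, 17 genes turned in at least 1 fit. Their ranges were HDAC2 −0.10 to 0.11, HDAC4 −0.0098 to 0.41, HDAC5 −0.17 to 0.092, SIRT1 −0.16 to 0.14, SIRT5 −0.14 to 0.27, KAT2B −0.066 to 0.15, KAT6B −0.11 to 0.032, KAT8 −0.079 to 0.16, KDM2B −0.031 to 0.25, KDM3A −0.028 to 0.19, KDM4A −0.048 to 0.12, KDM4B −0.11 to 0.12, KDM5B −0.0014 to 0.087, DOT1L −0.10 to 0.32, SETD7 −0.23 to 0.066, DNMT3A −0.23 to 0.0090 and PRMT1 −0.11 to 0.095. Over the fits that held all genes of a role, library totals left out, the number above 0 ran from 1 to 3 of 4 class I and 3 to 5 of 7 class II and IV deacetylases, 1 to 3 of 7 sirtuins, 3 to 4 of 7 acetyltransferases, 7 to 11 of 12 demethylases, 4 to 6 of 8 lysine and 2 to 3 of 5 arginine methyltransferases. The cause was not tested.

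No paired analysis was possible because control and WD libraries came from different camels. Depth limits CON13 and WD6 most, and genes under 10 CPM in particular.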
